A study of Bos taurus with 14 samples.

Results

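The miR-23, miR-27 and miR-24 families in milk small extracellular vesicles (sEVs) were described in 14 Holstein cows with subclinical mastitis. Members were all miRNA/precursor pairs named miR-23a, miR-23b, miR-24, miR-27a or miR-27b, with any arm suffix and any precursor. The rule found 8 of the 350 listed pairs, which carry 6 of 268 mature names. These are bta-miR-23a, bta-miR-23b-3p, bta-miR-24-3p, bta-miR-27a-3p, bta-miR-27a-5p and bta-miR-27b, written without the species prefix from here on. The 7 cows of the control group received the total mixed ration alone, and the 7 cows of the inulin group received it with 300 g/d of inulin, a fructan used as a prebiotic, for 5 wk after 1 wk of adaptation. All cows of both groups had subclinical mastitis, an inflammation of the udder without visible signs, so no healthy udder was in the comparison. Each library was made from the milk of a single cow, mixed over the milkings of the last day.

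As background, these miRNA are made together. A long primary transcript carries a hairpin of each family, Drosha cuts the hairpins out, Dicer cuts each into a short duplex, and usually the strand of 1 arm is kept. Mammals have a cluster with miR-23a, miR-27a and miR-24-2 and another with miR-23b, miR-27b and miR-24-1. In the bovine gene list of RefSeq for ARS-UCD2.0, MIR23A, MIR27A and MIR24-2 follow each other with no other gene between them. They lie within the span of the protein-coding gene LOC132345691. Likewise MIR23B, MIR27B and MIR24-1 follow each other, within the span of the aminopeptidase gene AOPEP and with no other gene between them. The same mature miR-24-3p comes from both clusters, whereas miR-23a and miR-23b, like miR-27a and miR-27b, are near-identical products of different clusters that share their seed. In other tissues miR-27 is known for repressing PPARG, a regulator of fat cell formation, miR-23 for repressing glutaminase, and miR-24 for repressing genes of the cell cycle. Mature sequences are not printed here.

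The total count of a cow, over all listed pairs, ranged from 4165 to 415020, and reads that fit several precursors enter it more than one time. Levels are given as CPM, the count of a pair after scaling the total of the cow to 1000000. A pair is called detected in a cow with at least 1 count, and 3 counts is the limit that a count of 0 allows. At these depths 3 counts were 7.23 CPM in control cow 5 and 720 CPM in control cow 2. The epithelial and milk markers miR-148a, miR-200a, miR-200b, miR-200c, miR-141, miR-429 and miR-375 were all listed, with a summed level of 3601 to 15550 CPM in control cows and 6019 to 10510 CPM in inulin cows. By mean over 14 cows miR-200c (5324 CPM), miR-375 (1671 CPM) and miR-141 (449 CPM) were highest, each detected in 14 cows. The others lay between 23.8 CPM (miR-429, 6 cows) and 80.9 CPM (miR-200b, 8 cows), with miR-148a at 46.7 CPM in 9 cows. Of 6 leukocyte markers 5 were listed (all but miR-146a), with sums of 0 to 824 CPM in control cows and 45.4 to 486 CPM in inulin cows. Of 3 red blood cell markers miR-486 was listed, at 0 to 53.9 and 0 to 67.5 CPM, and miR-451 and miR-144 were not.

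The members were minor cargo. They made up on average 0.0275% of the total count of a cow, with only the member counts at 1 precursor per mature miRNA. This was 274.5 CPM ± 246.8 (SD, n = 14 cows). It ranged from 0 CPM in control cow 7 and inulin cow 3 to 961 CPM in control cow 5. Because the total holds some reads more than 1 time, the share is a low estimate. By mean CPM over the 14 cows miR-24-3p ranked 54 of the 268 mature names, miR-23a 65, miR-23b-3p 81, miR-27b 152, miR-27a-3p 164 and miR-27a-5p 217. Control cow 5, the most deeply sequenced cow, was the only one with all 8 pairs detected (7 with at least 3 counts). It held 51.0% of all counts of miR-24-3p, 68.2% of miR-23a, 62.0% of miR-23b-3p and 90.9% of miR-27a-3p.

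**Figure D1:**
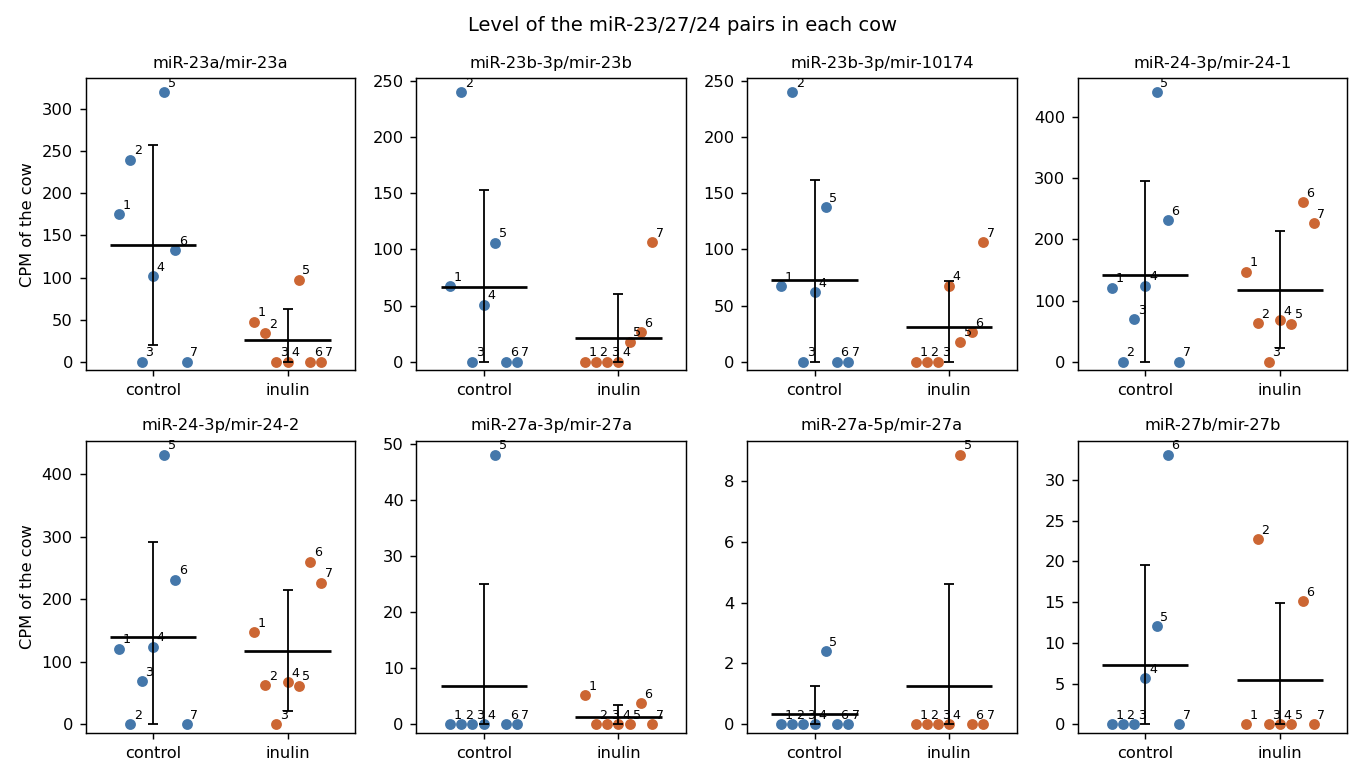
Level of each of the 8 pairs in CPM (vertical axis, a different range in each panel) in the cows of the control and inulin groups, where each point is a cow with its number, the line is the group mean and the bar is the SD, drawn no lower than 0. For miR-23a the inulin values lie below those of the 5 control cows with counts, although zeros in shallow cows have limits up to 202 CPM, whereas the groups overlap for miR-24-3p, and the miR-27 panels reach at most 48.2 CPM.

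The family member with the most counts was miR-24-3p, made from both clusters. At mir-24-1 its level in control cows 1 to 7 was 121, 0, 69.2, 124, 441, 232 and 0 CPM. In inulin cows 1 to 7 it was 147, 62.5, 0, 67.5, 62.0, 260 and 226 CPM. It was detected in 5 control and 6 inulin cows (at least 3 counts in 5 and 5), with a median of 121 and 67.5 CPM. At mir-24-2 the means were 139.6 ± 151.7 and 118.0 ± 96.2 CPM (SD, n = 7 each), and at both precursors the values of the groups overlapped over most of their range. The counts at mir-24-1 and mir-24-2 were equal in 13 of 14 cows, 359 and 355 in all, and differed only in control cow 5, with 183 against 179. These counts therefore do not tell how much came from either cluster.

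The miR-23a level in control cows 1 to 7 was 175, 240, 0, 101.6, 320, 132 and 0 CPM. In inulin cows 1 to 7 it was 47.4, 34.1, 0, 0, 97.4, 0 and 0 CPM. The 5 control cows with counts all exceeded the highest inulin cow, and the remaining control cows had none. The value of control cow 2 was a single read of 4165, with a 95% Wilson interval of 42.4 to 1359 CPM, which like all intervals here covers counting error only. Inulin cow 6, the deepest library of its group, had 0 counts of miR-23a in 265214, which allows up to 11.3 CPM. The limits of the other cows at 0 were 41.5 and 129.6 CPM in control cows 3 and 7 and 85.8, 202 and 39.9 CPM in inulin cows 3, 4 and 7. The depth of inulin cow 4 therefore does not place it below control cows 1, 4 and 6.

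For miR-23b-3p the table lists the precursors mir-23b and mir-10174, without a length for either pair. At mir-10174 the level was 67.3, 240, 0, 62.1, 137, 0 and 0 CPM in control cows 1 to 7. In inulin cows 1 to 7 it was 0, 0, 0, 67.5, 17.7, 26.4 and 107 CPM. It was detected in 4 cows of each group (at least 3 counts in 3 control and 2 inulin cows), with means of 72.4 ± 89.6 CPM (control) and 31.2 ± 41.1 CPM (inulin) (SD, n = 7 each). The highest value, that of control cow 2, was a single read, and without this cow the difference of the means moved from -41.2 to -13.3 CPM. The counts at mir-23b were the same in 11 of 14 cows and lower in control cow 4 (9 against 11), control cow 5 (44 against 57) and inulin cow 4 (0 against 1). The name mir-10174 had no match in the RefSeq gene table, while the other 6 precursors of the members matched. Because miR-23a and miR-23b differ so little, short reads of either could be counted for the other, and their split is uncertain to that extent.

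Products of the hairpin between them were scarce. For miR-27a-3p the counts were 20 in control cow 5 (48.2 CPM) and 1 each in inulin cows 1 and 6 (5.27 and 3.77 CPM), with 0 in the other 11 cows. In 8 other cows the depth was enough to detect 48.2 CPM, and 6 of these had no read. For miR-27b there were 15 counts in 5 cows, at 5.64, 12.1 and 33.1 CPM in control cows 4, 5 and 6 and 22.7 and 15.1 CPM in inulin cows 2 and 6. Control cow 6 was highest by CPM, but its value was a single read (95% Wilson interval 5.84 to 187 CPM). The opposite arm, miR-27a-5p, had 1 count in control cow 5 and 1 in inulin cow 5, against the 22 counts of miR-27a-3p over all cows.

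Since the primary transcripts carry a hairpin of each family, counts of the families can be set against each other within a cow. There the families were sequenced to the same depth, although shallow cows with few or no reads carry little information. Equal depth does not mean that each miRNA was captured equally well in the library, which was not measured. The shares and ratios below, also those of other clusters, therefore describe reads and not amounts of miRNA. Summed over the cows, miR-23 had 287 counts, miR-24 359 and miR-27 39, or 41.9%, 52.4% and 5.69% of the member counts. Control cow 5 gave 399 of these 685 counts, and without it the shares were 33.9%, 61.5% and 4.54%. In control cows they were 48.9%, 45.5% and 5.63%, and in inulin cows 23.4%, 70.7% and 5.85%, which were not tested against each other as pooled reads. Mean levels over 14 cows were 133.8 ± 158.3 CPM for miR-23, 129.5 ± 124.4 CPM for miR-24 and 11.2 ± 18.1 CPM for miR-27 (SD). In 11 of the 14 cows miR-23 exceeded miR-27 and in 11 miR-24 did, with no cow the other way around, and the remaining 3 cows were level in each case. Between miR-24 and miR-23 the order varied: miR-24 was higher in 6 cows and miR-23 in 5.

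**Figure D2:**
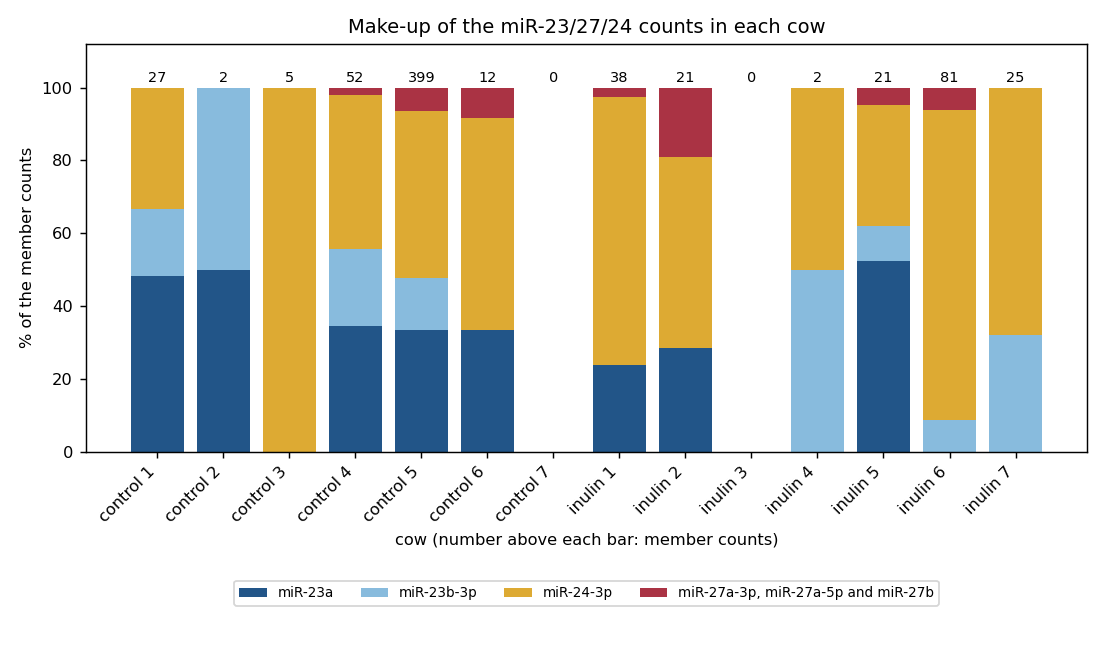
Share of miR-23a, miR-23b-3p, miR-24-3p and the miR-27 products in the member counts of each cow, in percent (vertical axis), with 1 precursor per mature miRNA and the number of member counts above each bar. Bars that rest on 2 or 5 counts carry little information, and control cow 7 and inulin cow 3 have no bar because no member was counted there.

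Of the 3 ratios of a single miR-23 or miR-24 member to a miR-27 member, 2 passed the test after adjustment. For each cow the log2 of the ratio of the counts was taken after adding 0.5 to each, and the mean over 14 cows was tested by exact sign-flip permutation, two-sided, for 6 ratios with Benjamini-Hochberg adjustment over them. The count of miR-24-3p was above that of miR-27a-3p in all 11 cows that had either, with a mean log2 ratio of 3.23 ± 2.01 (SD, n = 14 cows, exact permutation p = 0.000977, the smallest that 11 cows can give, adjusted p = 0.00586). From the same cluster, miR-23a was above miR-27a-3p in 8 cows and below it in 1, with a mean log2 ratio of 1.91 ± 2.19 (SD, n = 14 cows, exact permutation p = 0.0117, adjusted p = 0.0352). With each cow left out in turn these ratios stayed between 3.05 and 3.48 and between 1.66 and 2.18, and their exact permutation p was at most 0.00195 and 0.0234, respectively. Adding 2 to each count in place of 0.5 gave 2.12 and 1.215, and adding 0.1 gave 4.555 and 2.742, in the same order. The direction held, but the size of these ratios depends on the number added, since miR-27a-3p was at 0 in most cows. Cows without either count have a ratio of 0, so the mean understates the ratio where reads were found. The counts of miR-24-3p come from both clusters, and those of miR-27a-3p and miR-23a from 1 cluster. Equal output of the hairpins would therefore not give a log2 ratio of 0 for miR-24-3p to either of them.

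For the other cluster, miR-23b-3p, counted at mir-10174, was above miR-27b in 8 cows and below it in 2. The mean log2 ratio was 1.10 ± 2.07 (SD, n = 14 cows, exact permutation p = 0.0742, adjusted p = 0.111). With the counts at mir-23b it was 0.94 (exact permutation p = 0.113, unadjusted). Whether mir-10174 lies in this cluster is not known, since its name had no match in the RefSeq gene table. The ratio of miR-24-3p to miR-23a was 1.32 ± 2.39 on the log2 scale, higher in 9 cows and lower in 3 (exact permutation p = 0.0508, adjusted p = 0.102), and left-out cows moved it from 0.87 to 1.54. Without control cow 1, control cow 2 or inulin cow 5 its unadjusted p fell below 0.05, with ratios of 1.46, 1.54 and 1.47. Likewise the ratio of miR-23b-3p to miR-27b had an unadjusted p below 0.05 without control cow 6 or inulin cow 2, with ratios of 1.30 and 1.42. The paralogs were not told apart by level: miR-23a against miR-23b-3p had a mean log2 ratio of 0.50 ± 2.50 (exact permutation p = 0.467, adjusted p = 0.531) and miR-27a-3p against miR-27b of -0.32 ± 1.31 (exact permutation p = 0.531, adjusted p = 0.531).

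**Figure D3:**
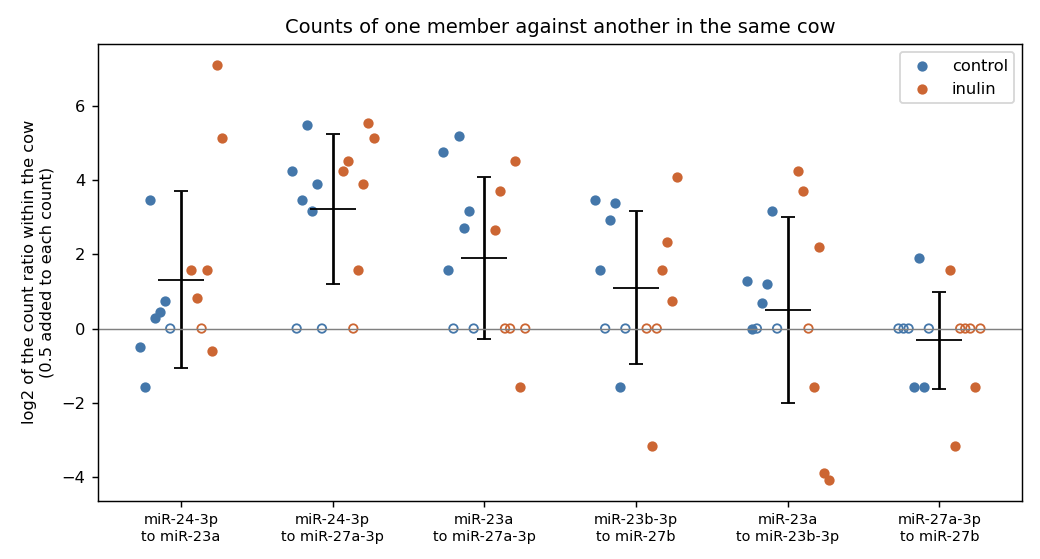
Log2 ratio of the counts of 2 members in the same cow (vertical axis, 0.5 added to each count) for the 6 ratios, with a point per cow, open where both counts were 0, and the mean with its SD in black. No cow lies below 0 for miR-24-3p to miR-27a-3p, whereas for miR-23a to miR-23b-3p inulin cows hold both the lowest and the highest values.

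The share of miR-23a in the miR-23 counts ranged from 0% to 100% between cows. It was 72.2% of 18 counts in control cow 1, 62.1% of 29 in control cow 4 and 70.0% of 190 in control cow 5, values whose 95% Wilson intervals overlap. In the inulin group, cows 1 and 2 had only miR-23a, 9 and 6 counts (100% each, Wilson intervals from 70.1% and 61.0%). Inulin cows 6 and 7 had only miR-23b-3p, 7 and 8 counts (0% miR-23a, Wilson intervals up to 35.4% and 32.4%). Inulin cow 5 had 11 of 13 counts from miR-23a (84.6%). Over all cows 5 had both paralogs, 3 only miR-23a, 3 only miR-23b-3p and 3 neither. The split was not tested between the diets beyond the ratio given with the diet comparison.

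Among the 9 cows with at least 10 member counts, the share of miR-24 ranged from 33.3% to 58.3% in 4 control cows and from 33.3% to 85.2% in 5 inulin cows. Inulin cow 6 was highest, with 69 of 81 member counts from miR-24-3p (95% Wilson interval 75.9% to 91.3%), above the interval of control cow 5, 45.9% of 399 (41.04% to 50.8%). The share of miR-27 was at most 8.33% in these control cows and at most 19.0% in these inulin cows, where inulin cow 2 had 4 of 21 counts.

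Unequal levels within a cluster were also seen in other polycistronic clusters of these libraries. Leaving aside the rare opposite arm miR-27a-5p (0.804 CPM), the highest mean CPM of the miR-23/27/24 members, that of miR-24-3p, was 31.7 times the lowest, that of miR-27a-3p. Without control cow 5 it was 152 times, at 105.5 against 0.695 CPM, because that cow held most of the miR-27a-3p counts. With all cows the same ratio was 798.5 in the miR-17-92 cluster, from 275 CPM for miR-92a to 0.344 CPM for miR-19b, which had 2 counts. It was 265 in the miR-106b-25 cluster, 45.6 for miR-191 over miR-425-5p, 11.8 for miR-200c over miR-141 and 2.18 for miR-182 over miR-183. Without control cow 5 miR-18a of miR-17-92 was at 0, and the other ratios were 240, 39.2, 15.4 and 1.98. All ratios cover listed members only, and miR-19a of miR-17-92 and miR-96, from the cluster of miR-183, were not listed. The value of 2.18 therefore does not show that the whole cluster of miR-183 was level. These ratios are descriptions, since the clusters differ in size, the lowest members rest on few reads and miR-92a, like miR-24-3p, has a further gene copy. Summed over their listed members, the miR-23/27/24 clusters (274 CPM without miR-27a-5p) were close to miR-17-92 (297 CPM) and far below miR-200c with miR-141 (5774 CPM).

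**Figure D4:**
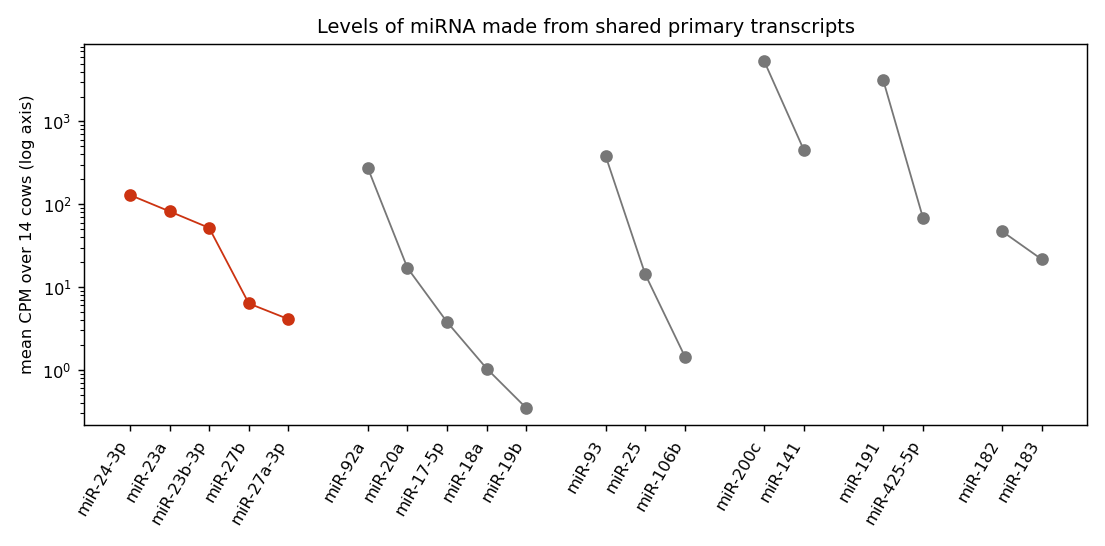
Mean CPM over 14 cows on a log axis for the listed members of 6 sets of miRNA from shared primary transcripts, each ordered from high to low, with the miR-23/27/24 members in red. Here miR-27b at 6.33 CPM and miR-27a-3p at 4.09 CPM lie far below miR-24-3p at 129.5 CPM.

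No member differed between the diets by the main test, and miR-23a came closest. Quasi-likelihood fits in edgeR covered the 210 pairs that reached 10 counts in total, among them 7 of the 8 members (miR-27a-5p had 2 counts). The study called a pair at P under 0.05 without adjustment when its log2 fold change also lay beyond 1 in either direction. By that rule edgeR called 19 pairs, a background of 9.05%, of which 13 were lower (6.19%) and 6 higher (2.86%) with inulin, and 0 of the 7 members. At an unadjusted p under 0.05 alone edgeR also found 0 members, on the same background of 9.05%. DESeq2 called 0 members by the rule (background 4.29%) and 0 at an unadjusted p under 0.05 (background 4.76%). With limma-voom 1 member, miR-23a, passed the rule (background 6.67%) and the unadjusted threshold (background 7.14%). No pair of the 210 passed an adjusted p of 0.05 in edgeR, DESeq2 or limma-voom (0 each). The median log2 fold change was -1.34 over the 7 members and -0.40 over all 210 pairs, with 6 of 7 members and 70.0% of all pairs below 0. Several members share reads, so these are not 7 separate measurements.

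Among the tested members miR-23a had the edgeR log2 fold change farthest from 0, at -2.11 with an SE of 1.19 (adjusted p = 0.766, edgeR), on 169 counts in the control and 26 in the inulin group. All 7 inulin cows had miR-23a values below the control median of 132 CPM. In inulin cow 4, however, the count of 0 allows up to 202 CPM. The mean of miR-23a in CPM was 138.5 ± 118.7 without and 25.5 ± 37.2 with inulin (SD, n = 7 each). Permuting the diet labels in every possible way gave an exact two-sided permutation p = 0.0332 for this difference, with an adjusted p of 0.816 over the 210 pairs, of which 4.29% were under 0.05 in that test without adjustment. With each cow left out the unadjusted p ranged from 0.0128 to 0.0664. It was above 0.05 without control cow 1, 2, 4, 5 or 6 or inulin cow 3, 4, 6 or 7, where the difference lay between -119 and -82.6 CPM, against -113 CPM with all cows. On the log2(CPM + 10) scale the exact permutation p was 0.0833, and with the let-7 pairs left out of the totals it was 0.0897. In edgeR the pair passed the rule without inulin cow 5, with a log2 fold change of -3.06 (adjusted p = 0.353 from edgeR). The median summed level of the leukocyte markers was 470 CPM in control and 405 CPM in inulin cows, and that of the epithelial markers 5558 and 7976 CPM. Their part in the difference was not tested, and fewer vesicles of a cell type cannot be told apart from less of a miRNA in each. The paper lists the control cows with more days in milk and a higher milk yield on average, neither at P under 0.05. The part of these in the miR-23a difference was not tested either.

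For the other members the difference between the diets was within the spread between cows. For miR-23b-3p the edgeR log2 fold change was -1.34 at mir-10174 with an SE of 1.27 (adjusted p = 0.918) and -1.45 at mir-23b with an SE of 1.28 (adjusted p = 0.914). Left-out cows moved the first from -2.04 to -0.63, the extremes being without inulin cow 7 and without inulin cow 2. For miR-24-3p at mir-24-1 edgeR gave -0.39 with an SE of 0.91 (adjusted p = 0.985), with an exact permutation p of 0.762 for the CPM. The log2 fold change became 0.32 without control cow 5 and 0.07 without inulin cow 2. The edgeR value of -1.97 for miR-27a-3p, with an SE of 1.16 (adjusted p = 0.786), rested on the 20 counts of control cow 5, without which 2 counts remained and the pair was not tested. For miR-27b, with 7 counts in control and 8 in inulin cows, it was 0.01 (adjusted p = 0.991 from edgeR) and its sign depended on the setting.

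**Figure D5:**
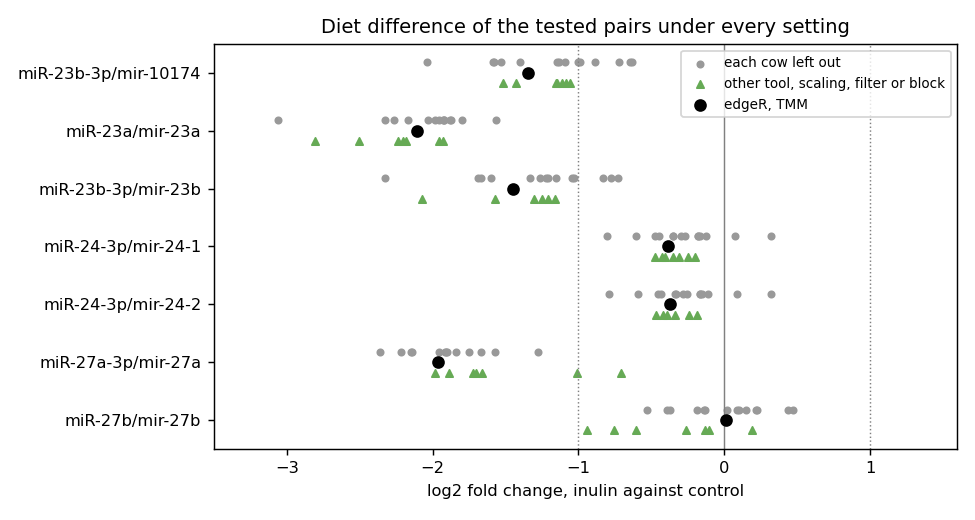
Log2 fold change of inulin against control (horizontal axis) for the 7 tested pairs, with the edgeR value in black, the values with each cow left out in grey above it and those under another tool, scaling, filter, precursor choice or block as triangles below it. Dotted lines mark -1 and 1, and miR-23a and miR-27a-3p are farthest from 0 in edgeR, while miR-24-3p and miR-27b lie on both sides of 0.

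The balance of the members was compared between the diets by the same 6 log2 ratios, with an exact permutation test over the cows. These ratios are not free of depth, since 1 read against 0 gives 1.58 and 69 reads against 0 give 7.12. For miR-24-3p to miR-23a the mean was 0.41 ± 1.55 in control and 2.23 ± 2.83 in inulin cows (SD, n = 7 each, exact permutation p = 0.173, adjusted p = 0.739 over the 6 ratios). Inulin cows 6 and 7 had the highest ratios, with 69 and 17 counts of miR-24-3p and 0 of miR-23a, and without inulin cow 6 the difference fell from 1.83 to 1.01. For miR-23a to miR-23b-3p the means were 0.91 ± 1.15 and 0.08 ± 3.44 (exact permutation p = 0.554, adjusted p = 0.739, n = 7 each), with the wider spread in the inulin group, and the difference of -0.83 became -0.16 without inulin cow 6, -0.13 without inulin cow 7 and -1.52 without inulin cow 1. The other ratios differed by at most 1.16 on the log2 scale, for miR-23a to miR-27a-3p (exact permutation p = 0.332, adjusted p = 0.739), and no ratio had an unadjusted p under 0.05 (0 of 6, exact permutation tests).

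Detection depended on depth. A control cow had 4.00 ± 2.65 of the 8 pairs detected and an inulin cow 3.86 ± 2.04 (SD, n = 7 each), from 0 to 8 and from 0 to 6. With every cow thinned at random to 4165 counts, a mean of 1.78 ± 1.25 of the 8 pairs in control and 1.03 ± 0.658 in inulin cows remained over 100 draws. No thinned value over all listed pairs is given here. Whether the lower mean in inulin cows is particular to the members or general to their libraries was therefore not tested. On thinned counts miR-24-3p at mir-24-1 was found in 2.64 of 7 control and 2.57 of 7 inulin cows on average, miR-23a in 2.97 and 0.57, and miR-27a-3p in 0.2 and 0.04. Control cow 2 has 4165 counts and lost none, so its single read of miR-23a was kept in every draw.

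The miRNA outside the families whose CPM ranked the 14 cows most like miR-24-3p did were miR-99a-5p (Spearman's rho 0.756), miR-92a (0.734) and let-7d (0.722), among 63 mature miRNA found in at least 10 cows. These are descriptions over 14 cows that share their libraries and depth, and the CPM of miR-24-3p itself had a rho of 0.647 with the total count. Like miR-24-3p, miR-99a-5p and miR-92a were at 0 in control cows 2 and 7 and highest in control cow 5, at 848 and 1407 CPM. Both were picked for this likeness, so shared extremes are no separate evidence of it. In inulin cow 3 miR-99a-5p was at 85.8 CPM and miR-24-3p at 0, and in inulin cow 4 they were at 0 and 67.5 CPM. From the shared primary transcripts, miR-27a-3p and miR-27b had a rho of 0.63 and 0.543 with miR-24-3p, on few reads, and miR-23a and miR-23b-3p 0.216 and 0.214. With the total count the rho was 0.713 for miR-27a-3p, 0.428 for miR-27b, 0.165 for miR-23a and 0.0114 for miR-23b-3p.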

How the data were processed

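Small RNA of milk sEVs from 14 cows was sequenced and processed for the authors by a service provider, which kept reads of suitable length with the 3ʹ adapter and quantified miRNA with miRDeep2 against miRBase. The build ARS-UCD1.2 is named in the submitters' processing notes. The authors deposited read counts per miRNA/precursor pair and cow, without normalization, and RPM, which they computed from the same counts (recomputed here within 0.005). Lengths of the mature miRNA are deposited as well, except for 2 pairs. All columns belonged to a cow, with 0 left over. The columns were assigned by the labels. Results start from the counts.

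The members, lists and tests were chosen with earlier results of these data known. Named pairs are all members and the 3 mature miRNA ranked most like miR-24-3p. Lists of markers and of other clusters come from general knowledge. Where 1 precursor was needed, that with the most counts was used, which for miR-23b-3p is mir-10174. RefSeq (ARS-UCD2.0) gave names and neighbours only, because its build differs.

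All pairs with 10 or more counts in total entered a quasi-likelihood fit of edgeR 4.0.16, under R 4.3.3, after TMM scaling, and p-values had Benjamini-Hochberg adjustment. Its standard error was taken from the log2 fold change and its F statistic. Alternatives were DESeq2 (1.42.0, used by the authors), limma-voom (limma 3.58.1), other scalings and filters, 1 precursor per mature miRNA, a block for the number of the cow and fits without 1 cow. Ratios used a pseudocount of 0.5, with 2 and 0.1 as alternatives. Single values were tested by exact permutation in Python 3.11.15 with SciPy 1.17.1, NumPy 2.4.6 and pandas 2.3.3, where the smallest p is 0.000583 for groups of 7. Figures used matplotlib 3.10.9. Totals of 4165 to 415020 counts limit the precision of every level.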

Additional observations from a re-analysis of the deposited data

Results flagged for a closer look

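For each of the 8 pairs in each diet, 16 sets of 7 CPM values, the gap of the extreme cow to its neighbour was divided by the range (Dixon's ratio, critical value 0.568 at 95%). About 0.8 groups would be picked by chance if the values were normally distributed, which CPM values with many zeros are not. In these data 5 were picked, which share cows and reads, so no excess over chance can be read from this. The ratio was 1 for miR-27a-3p in control cow 5 (48.2 CPM), for miR-27a-5p in control cow 5 (2.41 CPM) and for miR-27a-5p in inulin cow 5 (8.85 CPM). A ratio of 1 follows whenever a single cow holds all the counts, and both miR-27a-5p values are single reads. For miR-27b control cow 6 stood apart, with a ratio of 0.636 on a single read in a library of 30225 counts. For miR-23b-3p at mir-23b inulin cow 7 stood apart (106.5 CPM, 8 counts), with a ratio of 0.752, whereas at mir-10174, where inulin cow 4 has 1 count, its ratio was 0.367 and below the critical value.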

How the results depend on the processing

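Most values kept their direction and their side of the threshold. The count of members passing the rule stayed at 0 except for 1 (miR-23a) with limma-voom, and left-out cows gave 0 to 1, the 1 being miR-23a without inulin cow 5. The calls over the 210 tested pairs numbered 19 in edgeR, 20 with the size factors of DESeq2 and 21 with the total count. On the same 210 pairs limma-voom gave 14 and DESeq2 9. Without a filter 75 of 350 pairs were called, and with 1 precursor per mature miRNA 15 of 162. For the fit without inulin cow 5 no share over all pairs is given here. The filter filterByExpr kept 62 pairs (3 called) and no member, so it gave no value for the members. The median log2 fold change of all pairs lay between -0.73 (limma-voom) and 0.04 (filterByExpr), against -0.40 in edgeR. The numbers of the cows mark different animals and do not pair them (correlation of deviations -0.329 to 0.256 by number, best match with the same number for 0 of 7 control and 2 of 7 inulin cows). With the replicate block 7 pairs and 0 members were called, and miR-27b was at -0.94.

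The sign of miR-27b, 0.01 in edgeR, reversed with DESeq2 (-0.61), limma-voom (-0.76), the size factors of DESeq2 (-0.26), the total count (-0.13) and 1 precursor per mature miRNA (-0.10), and left-out cows gave -0.53 to 0.47. For miR-24-3p left-out cows gave -0.80 to 0.32 at mir-24-1 and -0.79 to 0.32 at mir-24-2. Its CPM difference reversed to 0.20 (mir-24-1) and 0.21 (mir-24-2) on the log2(CPM + 10) scale and to 149 and 157.5 CPM with totals that leave out let-7. With those totals miR-27b was at 15.7 CPM. The CPM difference of miR-23a was past 0.05 no longer at -1.88 on the log2(CPM + 10) scale and at -430.5 CPM without let-7. Left-out cows moved the CPM differences from -136 to -82.6 for miR-23a, from -53.8 to -13.3 and -59.0 to -15.8 for miR-23b-3p at mir-10174 and mir-23b, from -46.7 to 26.96 and -45.4 to 26.96 for miR-24-3p at mir-24-1 and mir-24-2, from -6.74 to 1.29 for miR-27a-3p, from -0.344 to 1.26 for miR-27a-5p and from -4.74 to 2.45 for miR-27b.

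Among the ratios, miR-24-3p to miR-23a passed an unadjusted 0.05 with a pseudocount of 2 (0.91) and, chosen after seeing the data, without control cows 2 and 5, the shallowest and the deepest (1.63). Left-out cows gave 0.87 to 1.54. For miR-23b-3p to miR-27b, left-out cows gave 0.87 to 1.42, and the difference of CPM, 45.5, passed 0.05. Of the diet differences of ratios, miR-23a to miR-27a-3p passed an unadjusted 0.05 as a difference of CPM (-107), miR-24-3p to miR-27a-3p reversed as one (-17.4), and miR-27a-3p to miR-27b reversed with a pseudocount of 0.1 (0.16). Left-out cows gave 1.01 to 2.33 for miR-24-3p to miR-23a, 0.18 to 1.26 for miR-24-3p to miR-27a-3p, -1.69 to -0.67 for miR-23a to miR-27a-3p, -1.52 to -0.13 for miR-23a to miR-23b-3p, -1.15 to 0.0575 for miR-23b-3p to miR-27b and -0.61 to 0.18 for miR-27a-3p to miR-27b. Thinning lowered the pairs detected per inulin cow to 1.03. The cause of these changes was not tested. Depth limits every member: 3 counts were 7.23 to 720 CPM, depending on the cow.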
